A study of Homo sapiens with 4 samples.

Results

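Annexins and S100 proteins are calcium-binding families that are found in prostate cancer (PCa) extracellular vesicles (EVs) as proteins. Here the mRNAs of 9 of their genes, ANXA1, ANXA2, ANXA3, ANXA5, ANXA6, S100A4, S100A6, S100A10 and S100A11, were followed in the RNA of EVs released by PC3 cells. The genes were taken as a list of named proteins and matched by Ensembl identifier, and all 9 were among the 58051 genes of the count table and its 19629 protein-coding genes. PC3 is an established human PCa cell line derived from a bone metastasis. The cells were untreated, and EVs in the size range of exosomes were isolated from their medium with the exoEasy kit and qEV size exclusion columns. The total RNA of the EVs was sequenced as 2 biological replicates of a stranded library, and 2 small RNA libraries of the same study were not used here. The RNA of the PC3 cells themselves was not analysed here, so a level in the EVs could not be set against the level in the cells. There is a single condition, so the values describe these libraries and no test between conditions applies.

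An annexin binds the negatively charged lipids of a membrane when calcium is present. The S100 proteins are small and bind calcium through the EF-hand fold, and several of them dock onto annexins. The best known pair is ANXA2 with S100A10, which join in a complex at the inner face of the plasma membrane. Annexin proteins take part in membrane repair, endosome traffic and the binding of phosphatidylserine, and annexin V is one of the proteins probed on immunoblots of EVs.

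Genes received 489170 of 19563744 reads in replicate 1, and 475942 of 22042233 in replicate 2. Levels are given as CPM, counts scaled to a common total of gene reads, on which a single read is worth 2.04 (replicate 1) or 2.10 CPM (replicate 2). The strand setting of the counting is not given, so the CPM of a gene may not be that of its mRNA. The floor against which a count of 0 was compared was set at 3 reads, which is 6.13 and 6.30 CPM. Intervals and floors cover counting error only, since amplified reads are not independent molecules. Of the non-zero counts of protein-coding genes, 70.8% in replicate 1 and 68.0% in replicate 2 were even numbers, as were 6 of 6 and 3 of 7 non-zero counts of the members, and the cause was not tested. If counts are not single independent reads, the intervals and the floor are too narrow. Of 7 epithelial and mesenchymal genes listed for PC3 cells, 7 had a read in both replicates, beside 21.9% of all protein-coding genes. EPCAM had 2 reads in replicate 1 and 26 in replicate 2, and CDH1 had 4 and 14. KRT8 was highest at 2130 CPM. Its annotated span overlaps that of KRT18, at 187 CPM, on the opposite strand, and whether KRT8 counts hold KRT18 reads was not tested. No read was counted on the 6 blood and liver genes, among them HBB and ALB. Most protein-coding genes had no read either, those without one beginning at rank 8297 of 19629 by mean CPM.

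Because nearly identical copies decide which reads can be placed, the sequences come before the values. ANXA2 lies at chr15:60347134-60402883 of GRCh38, on the minus strand, and a processed pseudogene, ANXA2P2, lies at chr9:33624274-33625293. Over the 1020 bases of the ANXA2 coding sequence the 2 differ at 16 positions (98.4% identity), and the longest stretch without a difference is 221 bases. The first 150 bases of each, from the start codon, are given with the 1 position at which they differ in capitals.
ANXA2: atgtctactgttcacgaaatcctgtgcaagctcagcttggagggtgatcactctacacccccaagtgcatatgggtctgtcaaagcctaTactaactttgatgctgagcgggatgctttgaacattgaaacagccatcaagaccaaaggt
ANXA2P2: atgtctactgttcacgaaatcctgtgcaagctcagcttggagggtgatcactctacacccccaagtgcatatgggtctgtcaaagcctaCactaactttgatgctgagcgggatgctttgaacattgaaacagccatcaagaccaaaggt

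S100A6 has no copy of this kind, as is the case for most of the members. Its coding sequence on chromosome 1 is only 273 bases long with the stop codon, and it is shown whole, with the start and stop codons in capitals.
S100A6: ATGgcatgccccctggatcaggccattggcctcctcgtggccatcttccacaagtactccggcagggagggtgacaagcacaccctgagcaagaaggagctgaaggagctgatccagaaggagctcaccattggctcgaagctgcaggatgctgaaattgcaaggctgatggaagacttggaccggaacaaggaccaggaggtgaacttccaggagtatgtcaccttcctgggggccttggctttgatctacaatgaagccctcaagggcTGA

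Each member was represented by its MANE Select transcript, the reference transcript chosen jointly by Ensembl and RefSeq. For 7 of the 9, none of the 50-base stretches (50-mers) of this transcript occurred anywhere else in the genome. For ANXA2, 666 of 1505 50-mers (44.3%) did, and 31.9% of its stretches of 75 bases. These 50-mers fell at 3 places, with 629 at ANXA2P2, 79 at ANXA2P1 and 36 at ANXA2P3. For S100A11 the share was 6.42% of the 50-mers, and none of its stretches of 75 bases occurred elsewhere. The counting left out reads with several alignments, which were 46.8% ± 1.85 (SD, n = 2) of all reads. How many of them came from ANXA2 was not tested. Of the 11 annotated pseudogenes named after a member, 3 of ANXA2 and 8 of S100A11, only ANXA2P2 had a read, with 4 in replicate 1 and 0 in replicate 2.

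Reads in both replicates were found for 5 of the 9 mRNAs, and the same rule (1 read or more in each) held for 21.9% of all protein-coding genes. These were ANXA1, ANXA2, ANXA5, S100A6 and S100A10, that is 3 of 5 annexins and 2 of 4 S100 genes. With at least 10 reads in both replicates there were 3, ANXA2, S100A6 and S100A10, against 11.6% of protein-coding genes. A read in either replicate was found for 8. This looser rule is met by far more genes, since the protein-coding genes without a read began only at rank 8297 of 19629 by mean CPM. The median level over all 9 members was 16.8 CPM, and over all protein-coding genes it was 0. Among genes with at least 10 reads in sum, it was 27.7 CPM for 7 members and 29.3 CPM for 5764 protein-coding genes. Together the members received 150 reads in replicate 1 and 192 in replicate 2, which is 0.0512% (95% Wilson interval 0.0436 to 0.0601%) and 0.0695% (0.0603 to 0.0801%) of the reads on protein-coding genes.

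**Figure D1:**
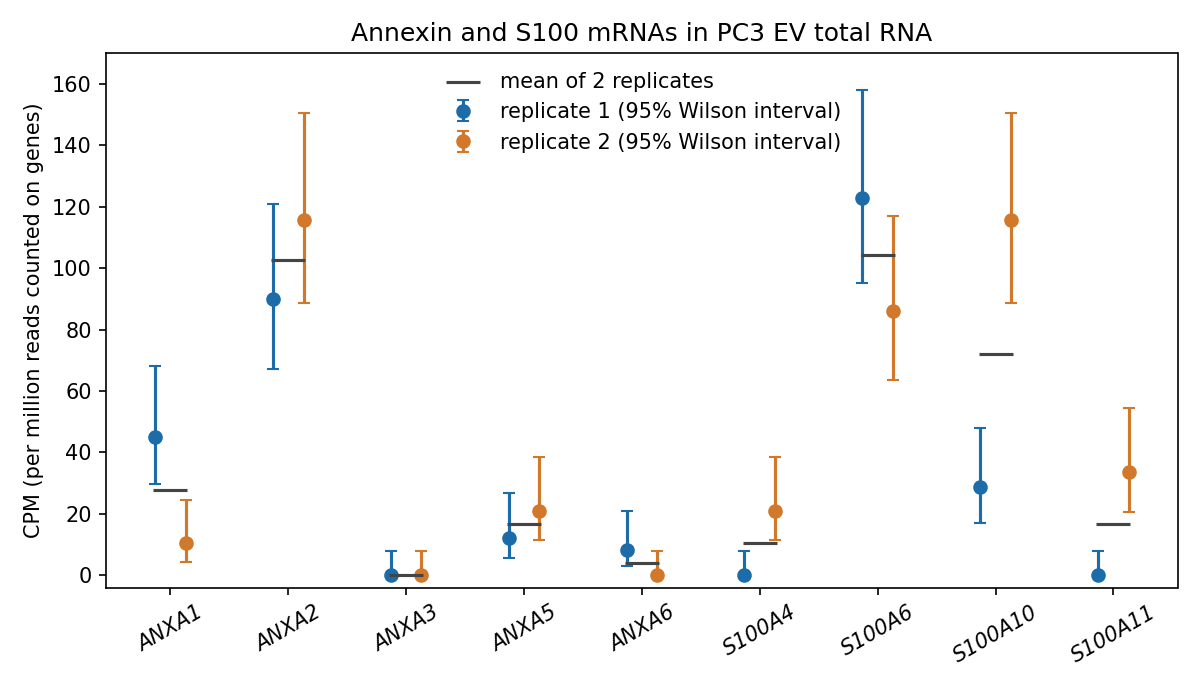
Level of each of the 9 mRNAs in CPM (vertical axis) in replicate 1 (blue) and replicate 2 (orange) with 95% Wilson intervals, and the mean of both (dash). ANXA2 and S100A6 lie near 100 CPM in both libraries with overlapping intervals, whereas S100A10 reads 28.6 CPM in replicate 1 and 116 CPM in replicate 2.

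Of the 5 annexin members, ANXA2 had the most reads. ANXA2 (ENSG00000182718), which bridges membranes and the actin skeleton, had 44 reads in replicate 1 and 55 in replicate 2. Its level was 89.9 CPM (95% Wilson interval 67.0 to 121) and 116 CPM (88.8 to 150), a mean of 103 CPM ± 18.1 (SD, n = 2). The intervals overlap, and the libraries gave a similar share for this gene. By mean CPM ANXA2 ranked 632 among the 19629 protein-coding genes.

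ANXA1 (ENSG00000135046, chr9:73151865-73170393, plus strand), an inhibitor of phospholipase A and a ligand of formyl peptide receptors, had 22 reads in replicate 1 and 5 in replicate 2. Its mean was 27.7 CPM ± 24.4 (SD, n = 2), and the intervals of 29.7 to 68.1 CPM and 4.49 to 24.6 CPM were apart, replicate 1 being the higher. ANXA5 (ENSG00000164111, chr4:121667946-121696995, minus strand), the annexin V that is used as a probe for phosphatidylserine, had 6 and 10 reads, a mean of 16.6 CPM ± 6.18 (SD, n = 2). Both ANXA5 values were low and their intervals overlapped.

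ANXA6 and ANXA3 had the fewest reads. ANXA6 (ENSG00000197043, chr5:151100706-151157815, minus strand), which has a doubled annexin core, had 4 reads in replicate 1 and 0 in replicate 2. ANXA3 (ENSG00000138772, chr4:78551747-78610451, plus strand) had 0 reads in both. The upper ends of the 95% Wilson intervals for ANXA3 were 7.85 CPM and 8.07 CPM, so its mRNA was not detected at this depth, which does not show that it was absent.

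All 4 S100 members lie on chromosome 1. S100A6 (ENSG00000197956, chr1:153534599-153536244, minus strand), also called calcyclin, had 60 reads in replicate 1 and 41 in replicate 2. Its level was 123 CPM (95% Wilson interval 95.3 to 158) and 86.1 CPM (63.5 to 117), a mean of 104 CPM ± 25.8 (SD, n = 2). These intervals overlap, and S100A6 ranked 618 by mean CPM. Its neighbours in rank were ZFPM2 at 105 CPM ± 2.37 and ZFPM1 at 104 CPM ± 46.0 (SD, n = 2), which differed from it by less than its SD. No gene was sought for a shared pattern, since 2 libraries of 1 condition hold none.

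S100A10 (ENSG00000197747, chr1:151982915-151993859, minus strand), the partner of ANXA2 and a member of the family that no longer binds calcium, had 14 reads in replicate 1 and 55 in replicate 2. That is 28.6 CPM (17.0 to 48.0) and 116 CPM (88.8 to 150), a mean of 72.1 CPM ± 61.5 (SD, n = 2), and the intervals were apart. The log2 ratio of replicate 2 to replicate 1 was 2.01 (95% counting interval 1.15 to 2.98) for S100A10 and 0.36 (-0.24 to 0.97) for ANXA2. In raw reads the pair had equal counts in replicate 2 but not in replicate 1. This does not compare their levels, since the transcripts differ in length and in shared sequence.

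S100A11 (ENSG00000163191, chr1:152032506-152047907, minus strand), which binds ANXA1, had 0 reads in replicate 1 and 16 in replicate 2. Its share in replicate 2 was 5.48-fold the floor of 3 reads in replicate 1. The intervals reached up to 7.85 CPM in replicate 1 and down to 20.7 CPM in replicate 2. S100A4 (ENSG00000196154, chr1:153543613-153550136, minus strand), known as metastasin for its link to metastasis, had 0 and 10 reads. Its share in replicate 2 was 3.43-fold the same floor, with intervals up to 7.85 CPM in replicate 1 and down to 11.4 CPM in replicate 2. These folds take the count of replicate 2 as exact and are not lower bounds. For both genes a mean over the replicates rests on replicate 2 alone.

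Such differences between the libraries were common among all genes. Of the 7 members with at least 10 reads summed over both replicates, 4 had intervals that were apart (ANXA1, S100A4, S100A10 and S100A11), and so did 56.4% of the protein-coding genes with as many reads. Of the 7 members with at least 10 reads in either replicate, 2 had 0 reads in the other, against 32% of protein-coding genes, a comparison added after the values were seen. Among protein-coding genes with a read in both and at least 10 in sum, the median size of the log2 ratio was 1.01. The sign of the difference varied among members. The CPM of ANXA1, ANXA6 and S100A6 was larger in replicate 1, and that of ANXA2, ANXA5, S100A4, S100A10 and S100A11 in replicate 2, with intervals apart only for the 4 genes named. In sum the annexins had 76 and 70 reads and the S100 members 74 and 122.

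**Figure D2:**
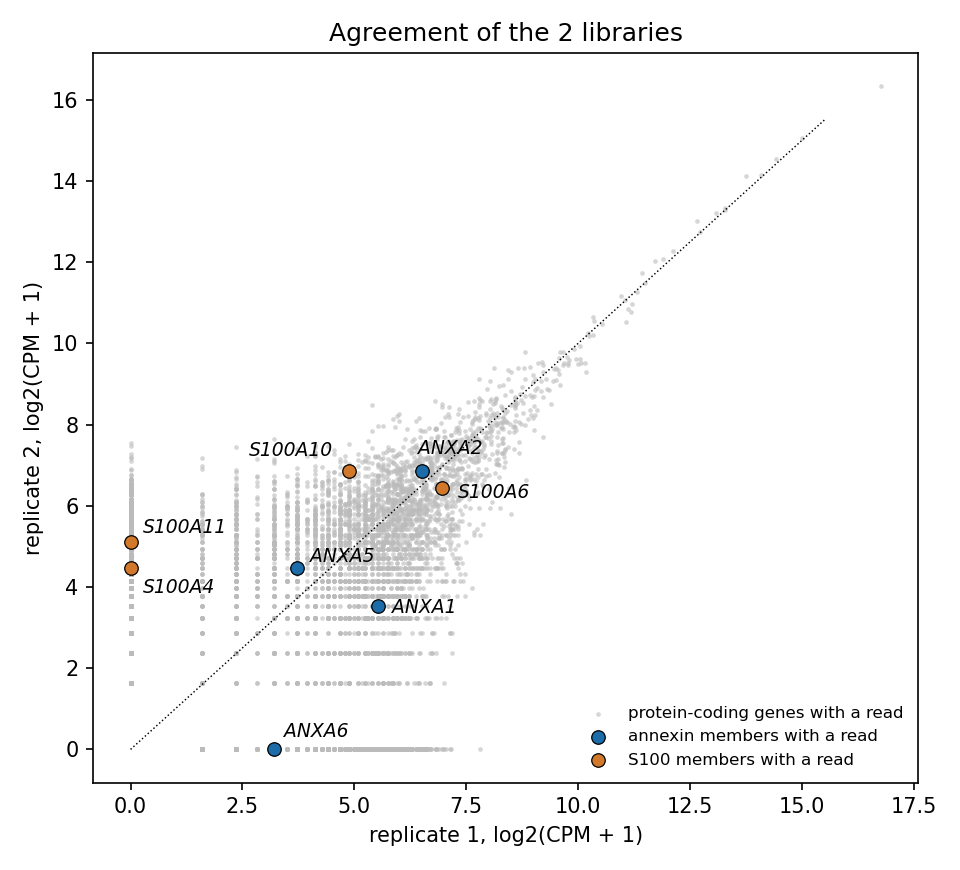
Replicate 1 (horizontal) against replicate 2 (vertical) as log2(CPM + 1), with protein-coding genes that have a read in grey, the annexin members with a read in blue and the S100 members with a read in orange, and the line of equality dotted. ANXA2, S100A6 and ANXA5 lie near the line, S100A11 and S100A4 at 0 in replicate 1, and ANXA6 at 0 in replicate 2.

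Levels of different genes can be set side by side only per length. The S100 transcripts are short, from 434 to 671 bases in 3 exons, and the annexin transcripts run from 1401 to 2889 bases in 13 to 26 exons. Per kilobase of all annotated exon, S100A6 was highest at 108 CPM per kilobase ± 26.6 (SD, n = 2), rank 101 among protein-coding genes. S100A10 followed at 71.2 ± 60.7 CPM per kilobase, then S100A11 at 25.9 ± 36.6 and S100A4 at 11.1 ± 15.7 (SD, n = 2). ANXA2 came next at 8.88 ± 1.56 CPM per kilobase, then ANXA1 at 6.23 ± 5.47, ANXA5 at 5.69 ± 2.11 and ANXA6 at 0.742 ± 1.05 (SD, n = 2). This first place rested on replicate 1, since in replicate 2 alone S100A10 was at 114 CPM per kilobase and S100A6 at 88.7. In the order of the means ANXA5 and ANXA6 were the only neighbours whose means differed by more than the larger of their SDs.

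The place of ANXA2 in that order depended on the length used. Its annotated exons cover 11574 bases, while the MANE Select transcript has 1554. With the MANE Select lengths, an alternative added after the data were seen, ANXA2 followed them at 66.1 CPM per kilobase ± 11.7 (SD, n = 2) where S100A6 was at 241 ± 59.5 and S100A10 at 107 ± 91.6 CPM per kilobase. The gap between S100A6 and S100A10 then exceeded the larger SD, and that between S100A10 and ANXA2 did not. When the length was restricted to positions that start a 50-mer found nowhere else, ANXA2 was at 122 CPM per kilobase ± 21.6 and S100A10 at 116 ± 98.8 (SD, n = 2), which differ by less than the larger SD. The length of 50 bases was a choice and was not taken from the read length. Of the 75-base stretches of ANXA2, 31.9% were shared, against 44.3% of its 50-mers. Longer stretches would thus lower its value, and the order of ANXA2 and S100A10 may rest on the choice. Of the members, S100A6 had the highest mean under these 3 lengths, and in replicate 2 alone under the latter 2.

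**Figure D3:**
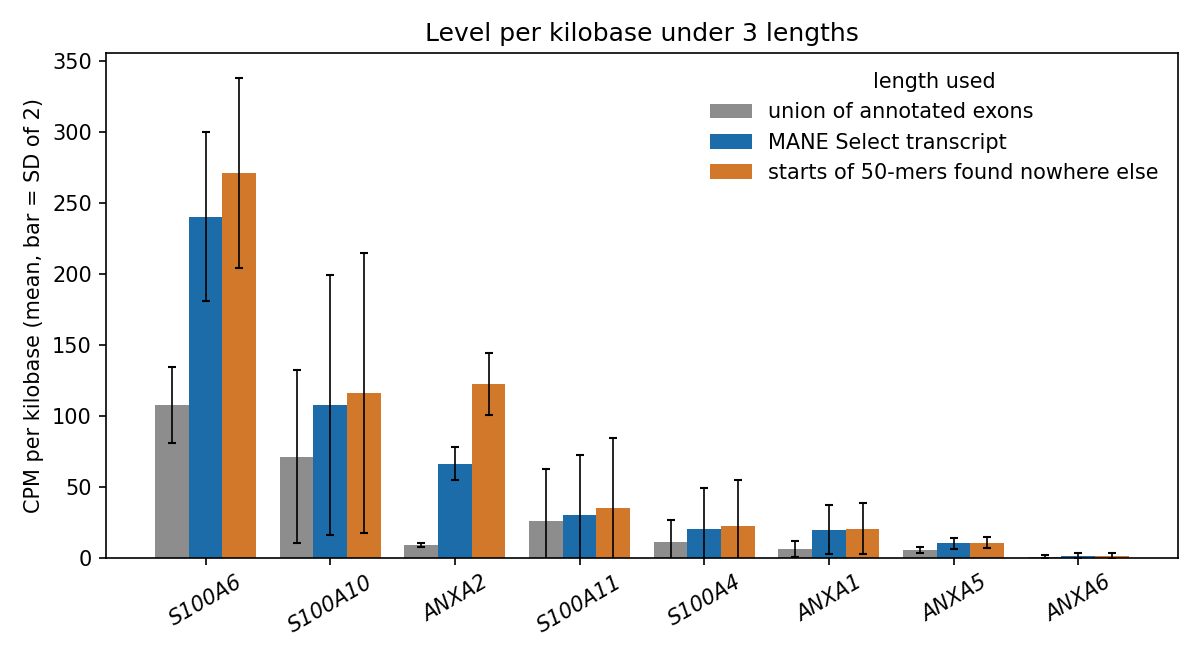
Mean level in CPM per kilobase (vertical axis, bars, with the SD of 2 replicates as the line) of the 8 members with a read, under the length of all annotated exons (grey), the MANE Select transcript (blue) and the positions starting a 50-mer found nowhere else (orange). The mean of S100A6 is highest under each length, and ANXA2 moves from 8.88 to 66.1 and 122 CPM per kilobase.

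The other strand was examined for genes that could share the reads of a member, since the strand setting of the counting is not given in the sources used here. Only S100A6 had an annotated gene overlapping its exons on the other strand, the lncRNA ENSG00000238279, over 37 bases that lie outside the MANE Select transcript. That lncRNA had 10 reads in replicate 1 and 2 in replicate 2, fewer than the 60 and 41 of S100A6. Which strand was counted was not tested here. The point bears on every member and not only on S100A6. With a setting opposite to that of the library, the counts would be of antisense or background reads and not of the mRNAs. Reads that fell on no annotated feature were 35.9% ± 0.671 (SD, n = 2) of all reads.

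To place the members in their families, the remaining 8 annexin and 17 S100 genes of the table were examined. Of these 25 genes 8 had a read in both replicates, beside 21.9% of all protein-coding genes. The annexins among them were ANXA11 with 57 reads in replicate 1 and 19 in replicate 2, ANXA7 with 6 and 21, and ANXA4 with 6 and 10. ANXA7 lies opposite the lncRNA ENSG00000233144 over 105 bases of exon, which had 93 and 97 reads. No read was counted on ANXA8, ANXA8L1, ANXA9, ANXA10 or ANXA13, and ANXA8 shares 63.2% of its 50-mers with other places.

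S100A16 received more reads than any member, with 168 in replicate 1 and 82 in replicate 2. Its mean level was 258 CPM ± 121 (SD, n = 2). Per kilobase of annotated exon it was at 152 CPM ± 71.1 (SD, n = 2), above S100A6 at 108 by less than its SD. With the MANE Select length S100A16 was below S100A6, at 220 ± 103 against 241 ± 59.5 CPM per kilobase, and with positions starting a 50-mer found nowhere else at 230 ± 108 against 271 ± 67.1 (SD, n = 2), again by less than the SD. S100A1 had 26 and 25 reads and S100A2 had 16 and 8, while S100A13 had 0 and 20 and S100P 0 and 12. S100A1 and S100A13 overlap over 235 bases of exon on opposite strands, and S100A1 also lies opposite the lncRNA ENSG00000272030 (9 and 44 reads) over 320 bases. S100A3 had 1 read in each replicate and S100A14 had 2, both below the floor of 3.

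Of the 21 S100 genes, 17 lie within 1649 kb of chromosome 1, the S100 cluster in which all 4 members sit. S100A10 and S100A11 stand at one end of it, and the next S100 gene, S100A9, begins 1375 kb from the start of S100A10. Among the S100 genes, S100A6 lies next to S100A5. S100A4 comes after S100A5, and its annotated span contains that of S100A3. Between S100A11 and S100A6 are 6 S100 genes, all without a read in either replicate, and genes of other families there were not examined. Among the 6 are S100A8 and S100A9, which encode the calprotectin of myeloid cells, and S100A7, the psoriasin of skin. In all, 7 of the 17 genes of the cluster had a read in both replicates, beside 21.9% of all protein-coding genes, and 7 had none.

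**Figure D4:**
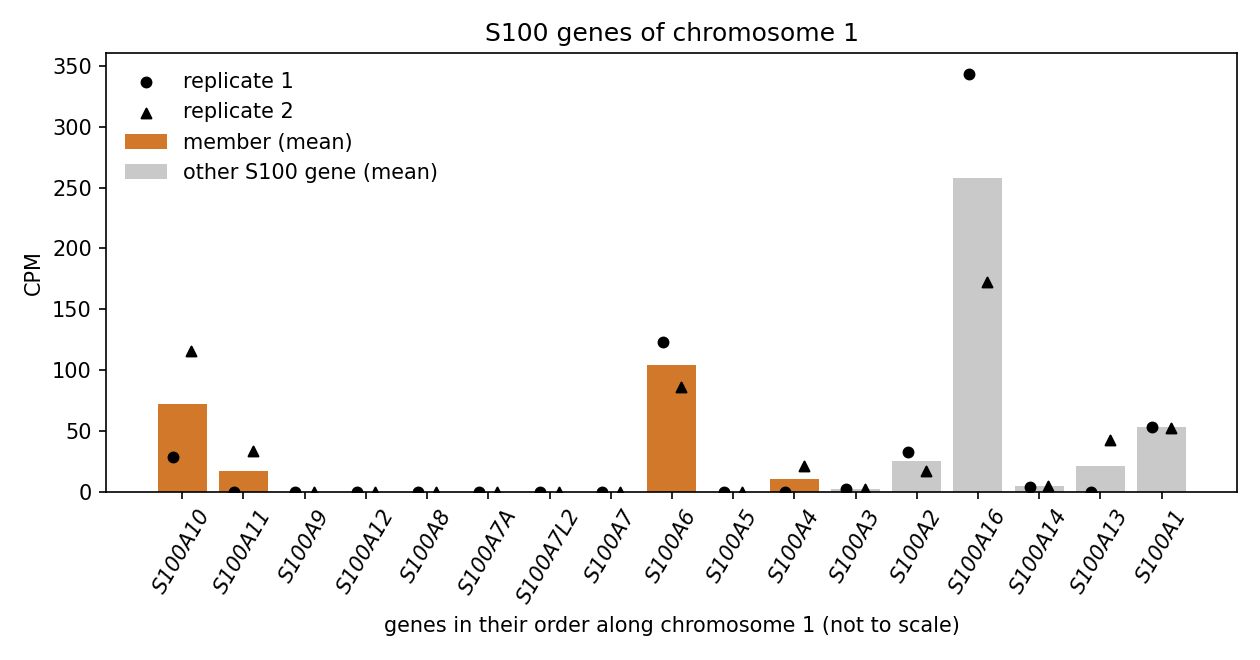
Mean CPM (bars) and the values of replicate 1 (circles) and replicate 2 (triangles) for the 17 S100 genes of chromosome 1 in their order along it, with members in orange and other genes in grey. The genes from S100A9 to S100A7 have no read, S100A16 is highest at 258 CPM, and S100A11, S100A4 and S100A13 are at 0 in replicate 1.

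Genes that act with annexins and S100 proteins were examined as a list of 30, which holds receptors, proteases, calmodulins and membrane repair proteins. A read in both replicates was found for 16, beside 21.9% of all protein-coding genes. The urokinase receptor PLAUR was among the 16, with 6 and 10 reads. No read was counted on the receptors ANXA2R, FPR1, FPR2 and AGER. The 5 with the most reads were MYH9, AHNAK, ENO1, CAPN2 and MYOF. MYH9, the non-muscle myosin heavy chain that S100A4 binds, had 377 reads in replicate 1 and 422 in replicate 2. AHNAK, a large scaffold that binds the complex of S100A10 and ANXA2, had 188 and 192 reads. ENO1, a glycolytic enzyme and plasminogen receptor, had 128 and 115. CAPN2, a calpain protease subunit, had 32 and 51, and MYOF, a membrane repair protein, had 61 and 10. MYH9 alone had more reads than the 9 members together in each replicate, and AHNAK had more in replicate 1 and the same number in replicate 2. These are long transcripts, and reads are not levels per length.

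Beside lists of other genes that EVs are often probed for, the members are given here as counts and medians. A read in both replicates was found for 14 of 30 vesicle biogenesis and tetraspanin genes (46.7%), with HGS highest by its mean, for 14 of 20 actin, tubulin and thymosin genes (70.0%), with ACTG1 highest, and for 14 of 17 glycolysis enzymes (82.4%), with GAPDH highest. The value for the members was 55.6%. HGS had 149 reads in replicate 1 and 29 in replicate 2, where SDC1 with 86 was higher. Median levels were 16.5 CPM for the vesicle genes, 101 CPM for the actin, tubulin and thymosin genes and 56.7 CPM for the glycolysis enzymes, against 16.8 CPM for the members. The lists differ in gene length, and these differences were not tested.

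**Figure D5:**
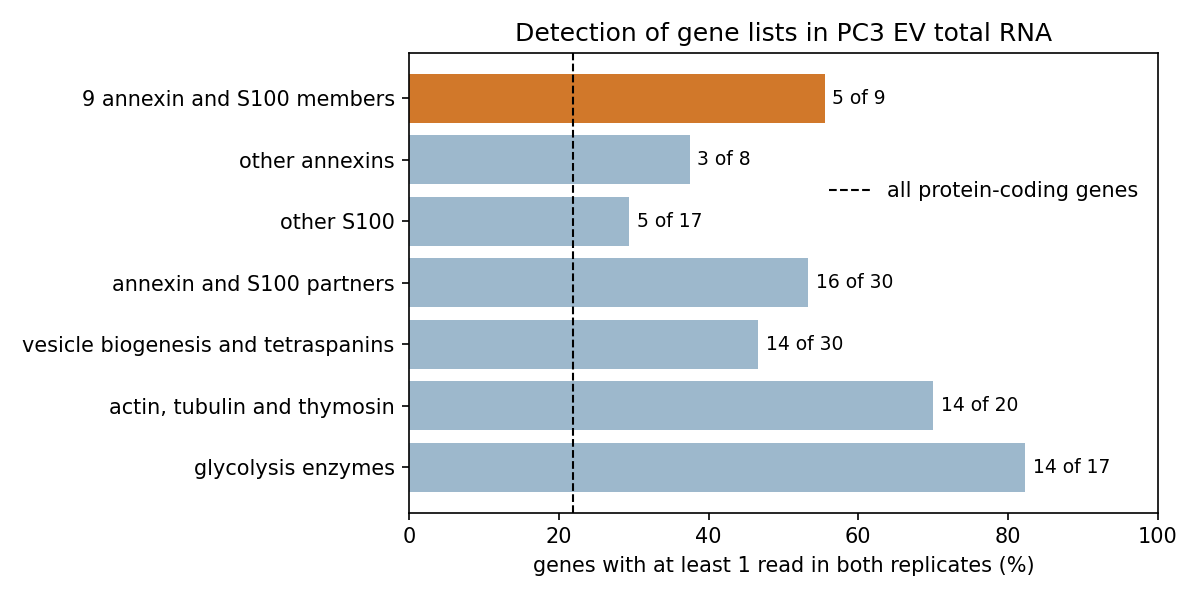
Share of the genes of each list with at least 1 read in both replicates (horizontal axis, %), with the number of genes beside each bar and the share of all protein-coding genes, 21.9%, as a dashed line. The members (orange) reach 55.6%, between the vesicle genes and the actin, tubulin and thymosin genes.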

How the data were processed

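Total RNA of PC3 EVs was sequenced from TruSeq Stranded libraries in 2 biological replicates. After adapter trimming and mapping to GRCh38, the authors deposited raw counts per Ensembl gene in the format of HTSeq. Cutadapt, SHRiMP and SAMtools are named for the study without saying which library each served. Tool versions, strand setting and annotation release are not given in the sources used here. The files were matched to replicates 1 and 2 through the sample descriptions, although both titles carry the same name. The miRNA table was not used.

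Counts were scaled to CPM on all gene counts, with 95% Wilson intervals and the mean and SD of 2. Symbols, coordinates and lengths came from GENCODE release 44, which matched 56948 of 58051 identifiers. Stretches of 50 and 75 bases of MANE Select transcripts were searched exactly, on both strands, in the main chromosomes of GRCh38. TMM factors came from edgeR 4.0.16 and size factors from DESeq2 1.42.0 in R 4.3.3. Other values came from Python 3.11.15 (pandas 2.3.3, numpy 2.4.6, scipy 1.17.1, numba 0.67.0), checked on simulated counts. No test was made.

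The genes named are the members, other family genes with at least 10 reads in sum, pseudogenes and opposite-strand genes of members with a read, the top 5 partners, the top gene of each list and the neighbours in rank of S100A6. Opposite-strand genes of other family genes, family and list genes with few or no reads, and PLAUR and SDC1 were named after their values were seen. The members and lists were chosen with earlier results of these data known. A further marker list is not reported here.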

Additional observations from a re-analysis of the deposited data

How the results depend on the processing

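No paired analysis was possible because there is 1 condition. Detection depended on the minimum. With at least 10 reads in both replicates, 3 members, 1 other annexin, 2 other S100 genes, 7 partners and 9 vesicle genes were detected, against 5, 3, 5, 16 and 14 by the rule used. The stricter rule held for 11.6% of all protein-coding genes and the rule used for 21.9%. With a read in either replicate there were 8 members and 22 vesicle genes, and protein-coding genes without a read began at rank 8297 of 19629 by mean CPM. At least 3 reads or at least 10 CPM in both left 3 other S100 genes, and the share of all protein-coding genes under these minimums was not computed. With each replicate left out in turn, there were 6 to 7 members, 3 other annexins in both cases, 5 to 7 other S100 genes, 17 to 18 partners, 18 vesicle genes in both cases, 15 to 16 actin, tubulin and thymosin genes and 14 to 16 glycolysis enzymes. Of the 19629 protein-coding genes, 5858 had a read in replicate 1 and 6743 in replicate 2. The summed share of the members was 0.0355% of all gene counts, 0.0958% of protein-coding counts without mitochondrial genes and RPS29, and 0.0427% without S100A6, against 0.0604%, and from 0.0512% to 0.0695% with a single replicate. The median level of the members, 16.8 CPM, was 29.0 CPM on protein-coding counts, 27.7 CPM over members with at least 10 reads in sum, and from 12.3 to 21.0 CPM with a single replicate. TMM scaling and size factors moved no member level by more than its SD. CPM on protein-coding counts did so for ANXA2, ANXA5 and S100A6, to 175, 28.3 and 177 CPM. With the longest annotated transcript as the length, 4 of 8 levels per kilobase stayed within 1 SD, and ANXA2 moved from 8.88 to 29.1 CPM per kilobase. With a minimum overlap of 100 bases, 0 opposite-strand genes were left.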
